A study of Mus musculus with 9 samples.

Results

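The 10 genes described here encode the carnitine shuttle and the chain-shortening enzymes of fatty acid oxidation in the mitochondrion, and all 10 were found by symbol among the 55253 gene symbols of the deposited table. The WD+alcohol group was 5 male C57Bl/6J mice fed a Western diet (WD) for 23 weeks with sweetened drinking water that held 10% alcohol. They were 10 weeks old at the start per the series' design. The control group was 4 male C57Bl/6J mice kept on chow and plain tap water, also labelled 23 weeks. The age of the controls at the start is not stated. Liver values were compared between these groups. Diet, alcohol and sweetener were given together, so their shares in any difference cannot be told apart. Messenger RNA of whole liver was read from its 3′ ends, and each value is a read count scaled to library size (CPM) after TMM, a normalization that adjusts library sizes. Values were not divided by transcript length. How reads at the 3′ end relate to transcript number in each gene was not examined, so levels set between genes are read levels only.

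Long-chain fatty acids reach the mitochondrial matrix as carnitine esters. CPT1A on the outer membrane makes the ester, the carrier SLC25A20 moves it across the inner membrane, and CPT2 turns it back into an acyl-CoA. Each turn of the oxidation cycle then takes an acyl-CoA dehydrogenase matched to the length of the chain, a hydratase, a hydroxyacyl-CoA dehydrogenase and a thiolase. In the fed liver malonyl-CoA inhibits CPT1A, and in fasting the nuclear receptor PPAR-alpha raises transcription of many genes of the pathway.

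RefSeq promoter windows (build GRCm38.p6, 250 bases before to 50 bases after each annotated start) were taken by symbol for 9 of the 10 genes. No window of Acaa2 was used. The windows of the 10 genes, but not the set of all windows, were filtered by chromosome, so whether Acaa2 has a window was not examined. The windows of 4 genes are shown because they set the genes that rose beside genes that did not. Cpt1a and Acadm are the genes called higher below, Acadvl had the log2 fold change nearest to 0 of the 10 genes, and the window of Hadhb overlaps that of its neighbour Hadha. Capitals mark AGGTCA on either strand (TGACCT when read on the opposite strand), the hexamer bound by many nuclear receptors, and all bases are written 5′ to 3′ on the strand of the gene. The windows lie at chr19:3323051-3323350 (+ strand) for Cpt1a, chr3:153944594-153944893 (- strand) for Acadm, chr11:70015379-70015678 (- strand) for Acadvl and chr5:30155003-30155302 (+ strand) for Hadhb.
Cpt1a: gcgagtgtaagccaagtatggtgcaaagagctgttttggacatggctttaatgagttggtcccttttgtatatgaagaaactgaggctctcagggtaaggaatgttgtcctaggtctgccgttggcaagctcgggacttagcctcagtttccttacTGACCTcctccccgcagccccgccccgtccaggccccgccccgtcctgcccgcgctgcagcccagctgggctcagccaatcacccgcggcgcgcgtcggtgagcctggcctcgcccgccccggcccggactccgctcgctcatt
Acadm: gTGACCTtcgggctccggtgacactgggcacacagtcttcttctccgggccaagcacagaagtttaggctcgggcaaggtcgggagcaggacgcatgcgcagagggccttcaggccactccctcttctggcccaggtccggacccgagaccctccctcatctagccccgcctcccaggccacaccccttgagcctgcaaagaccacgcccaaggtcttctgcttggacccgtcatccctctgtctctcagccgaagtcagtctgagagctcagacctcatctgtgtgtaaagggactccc
Acadvl: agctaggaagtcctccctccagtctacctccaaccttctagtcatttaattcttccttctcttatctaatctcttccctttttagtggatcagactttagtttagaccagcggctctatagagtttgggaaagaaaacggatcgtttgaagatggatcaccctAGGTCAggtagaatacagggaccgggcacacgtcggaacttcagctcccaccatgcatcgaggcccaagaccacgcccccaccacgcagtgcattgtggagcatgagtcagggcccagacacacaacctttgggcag
Hadhb: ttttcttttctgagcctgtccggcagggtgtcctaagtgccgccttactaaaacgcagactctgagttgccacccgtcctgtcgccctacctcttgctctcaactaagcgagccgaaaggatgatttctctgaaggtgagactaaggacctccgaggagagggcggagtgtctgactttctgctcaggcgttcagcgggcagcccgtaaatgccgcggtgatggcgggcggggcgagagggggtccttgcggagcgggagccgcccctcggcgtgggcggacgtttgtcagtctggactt

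AGGTCA was present in 3 of the 9 windows, Cpt1a, Acadm and Acadvl, and in 16.3% of all 32851 windows of this length. Its first base lay 94 bases before the start of Cpt1a, 249 bases before that of Acadm and 87 bases before that of Acadvl. The element was thus shared by both genes that rose and by Acadvl, which did not pass the test. The full direct repeat AGGTCANAGGTCA is the form of element that PPAR-alpha binds with its partner RXR. It was matched in 0 of the 9 windows and in 0.0396% of all windows. With a match this rare, 0 of 9 does not set these genes apart from others. Sites that depart from this exact repeat or lie outside the windows were not searched. A GC box (GGGCGG) was present in 7 of the 9 windows, against 35.7% of all windows, and a CCAAT box (CCAAT) in 1, that of Cpt1a, against 37.4%. TATAAA was matched in 0 of the 9 windows, against 13.6% of all windows. All motifs were searched on both strands, and a match describes the letters only. Windows of the 9 genes held between 9 and 34 CpG dinucleotides, above the median of 7 over all windows. Hadha and Hadhb start on opposite strands 273 bases apart, and their windows have 228 bases in common.

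Libraries held between 3635860 and 6643645 reads in genes, and the genes described here drew between 149 and 4563 reads each in any library. The liver label was met by hepatocyte markers, with albumin (Alb) at a mean of 18876 CPM in WD+alcohol livers and 33497 CPM in control livers. Of 24 measured hepatocyte markers 0 rose and 2 fell (Alb and Apoa1, an apolipoprotein) by limma-trend, with 10 lower at an unadjusted p under 0.05, 2 lower by edgeR and 6 lower by DESeq2. The summed level of these markers ran from 52740 to 69457 CPM in WD+alcohol livers and from 67429 to 94855 CPM in control livers. Of 9 Kupffer cell markers 7 rose, with a summed level of 378 to 674 CPM in WD+alcohol livers and 91.2 to 184 CPM in control livers. Of 6 adipocyte markers 2 were abundant enough to be tested and both rose (Cfd and Fabp4), the summed level was 27.8 to 146 CPM in WD+alcohol livers and 9.23 to 16.3 CPM in control livers, and the defining markers were at or near 0 in both groups. Lep was at 0 in all 9 libraries, Adipoq at 0 except for 0.400 CPM (2 reads) in WD+alcohol 5, and Plin1 at most 1.08 CPM in WD+alcohol livers and at 0 in all controls. Among markers of other types, 1 of 8 for hepatic stellate cells rose (Dcn), 1 pancreatic marker fell (Cela1), and 0 of 7 endothelial, 0 of 4 cholangiocyte, 0 of 3 T and NK cell, 0 of 3 B cell and 0 of 3 neutrophil markers were called by limma-trend. At an unadjusted p under 0.05, 4 endothelial, 1 cholangiocyte, 1 T and NK cell, 1 B cell and 2 neutrophil markers were higher. Among these lists DESeq2 called 1 marker (S100a9, of neutrophils) and edgeR 0. Over all 14759 tested genes, 1798 were at an unadjusted p under 0.05 in either direction (limma-trend). After adjustment limma-trend called 238 of all genes higher and 100 lower, edgeR 222 and 93, and DESeq2 370 and 175. Lists this short allow no reading of a few such markers. The part of these cell types in the results below was not tested, and in whole tissue fewer cells of a type and less RNA per cell cannot be told apart.

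Cpt1a, the rate-limiting entry enzyme, and Acadm, the medium-chain acyl-CoA dehydrogenase, rose with WD+alcohol, and 0 of the 10 genes fell. These were 2 of 10 genes at an adjusted p under 0.05 (limma-trend with Benjamini-Hochberg adjustment over 14759 genes, with 0 lower at an unadjusted p under 0.05 and 0 called lower by edgeR or DESeq2), against 1.61% of all tested genes called higher, 0.678% called lower and 2.29% called in either direction. Groups were fully apart, every WD+alcohol liver above every control liver, for 4 genes (Cpt1a, Slc25a20, Acadm and Acads), against 3.34% of all tested genes. The groups of 0 of the 10 genes were apart in the other direction, and 5.34% of all genes were apart in either. The same 4 genes were those higher at an unadjusted p under 0.05 (limma-trend). Of all 14759 tested genes, 1798 were at such a p in either direction. A positive log2 fold change was found for 7 of the 10, against 49.9% of all genes, and the median over the 10 was 0.14, against -0.0008 over all genes. With libraries scaled on hepatocyte markers instead, which moved the median gene upward, the signs of the other 3 genes (Cpt2, Acadvl and Acaa2) turned positive. All fold changes are on the log2(CPM + 1) scale. The plot of fold changes by gene shows that the called genes sit at different steps, 1 in the shuttle and 1 among the dehydrogenases, each beside a gene of the same step with an interval across 0.

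**Figure D1:**
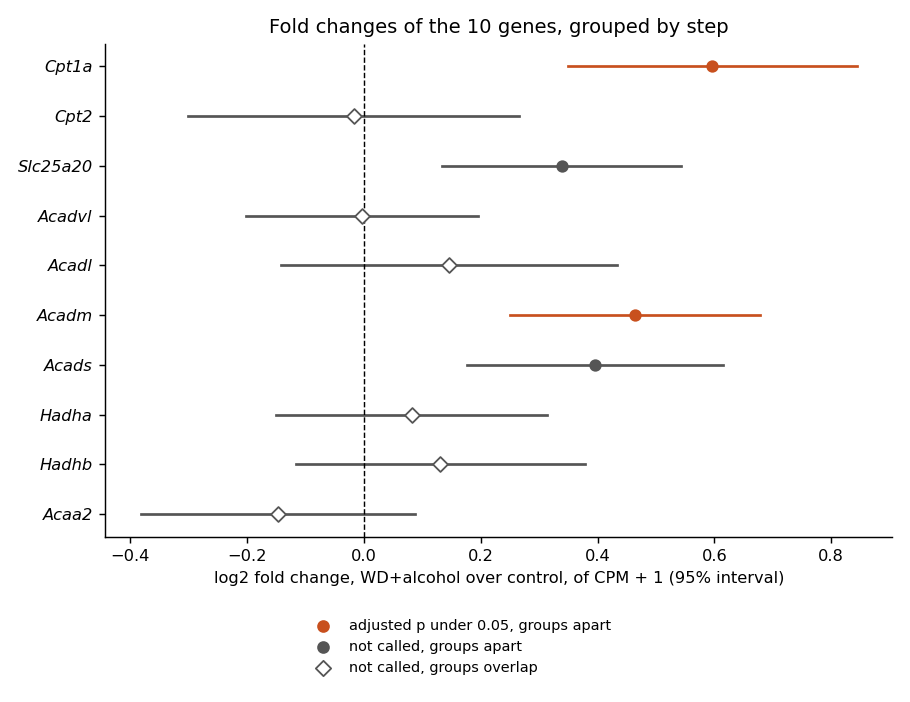
Log2 fold change of each gene, WD+alcohol over control, with its 95% interval (limma-trend, n = 5 and n = 4). Cpt1a (0.60) and Acadm (0.46) were called, Slc25a20 (0.34) and Acads (0.40) had groups apart without being called, and the intervals of the other 6 genes cross 0.

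In the carnitine shuttle the data differed between the mRNAs of its 3 proteins. Cpt1a stood at 171, 166, 209, 190.4 and 191 CPM in WD+alcohol livers and at 97.7, 119.8, 123 and 154 CPM in control livers. The lowest WD+alcohol liver lay above the highest control, which was control 4. The WD+alcohol mean was 186 ± 17.1 CPM (SD, n = 5) and the control mean 124 ± 23.4 CPM (SD, n = 4), a 1.51-fold difference with a 95% interval of 1.27 to 1.79 (adjusted p = 0.0136, limma-trend). The call held when any 1 of the 9 libraries was left out (adjusted p 0.0031 to 0.0452). Cpt1a was the liver form in these samples, with 95.03% to 98.0% of the reads of the 3 Cpt1 genes in each library. Cpt1b, the muscle form, had 0 reads in all 9 libraries, which allows a level of up to 0.455 to 0.809 CPM by counting error alone, and Cpt1c, the form known from brain, had 15 to 48 reads.

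Slc25a20, the carnitine-acylcarnitine carrier, had 130.2, 106, 126, 105 and 127 CPM in WD+alcohol livers and 83.4, 102, 87.2 and 102 CPM in control livers. The groups did not overlap, but the nearest livers were close, at 105 CPM in WD+alcohol 4 and 102 CPM in control 4. Its log2 fold change was 0.34 ± 0.09 (SE), with an adjusted p of 0.0916 (limma-trend), so the difference did not pass the test. It was called in 2 of 22 alternatives, with all libraries rescaled to one total (adjusted p = 0.0336) and with scaling on hepatocyte markers (0.0259).

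Cpt2, the inner-membrane transferase, had 73.3, 61.6, 96.5, 81.4 and 73.7 CPM in WD+alcohol livers and 64.6, 93.7, 84.3 and 70.3 CPM in control livers. These values overlapped throughout, with WD+alcohol 2 lowest and WD+alcohol 3 highest of all 9. The log2 fold change was -0.02 with a 95% interval of -0.30 to 0.27, so the data are compatible with changes of either sign within these bounds. Its sign turned in 6 of 22 alternatives.

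Whether the mRNAs of the outer and inner membrane transferases differed in their response was tested directly. The measure was the log2 ratio of Cpt1a to Cpt2 within each library, in which the library's scaling nearly cancels. The ratio averaged 1.26 ± 0.13 in WD+alcohol livers (SD, n = 5) and 0.65 ± 0.33 in control livers (SD, n = 4), a difference of 0.61 (two-sided exact permutation test over all 126 splits, p = 0.0159, adjusted p = 0.0238 over the 3 ratios tested). The smallest p these groups allow is 0.00794. On a linear scale Cpt1a exceeded Cpt2 by 2.16-fold to 2.70-fold in WD+alcohol livers and by 1.28-fold to 2.20-fold in control livers. Control 4, at a log2 ratio of 1.12, reached into the range of the WD+alcohol livers. Without WD+alcohol 1, 2, 4 or 5 the exact permutation p was 0.0571, and the difference stayed between 0.51 and 0.77 when any single library was left out.

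**Figure D2:**
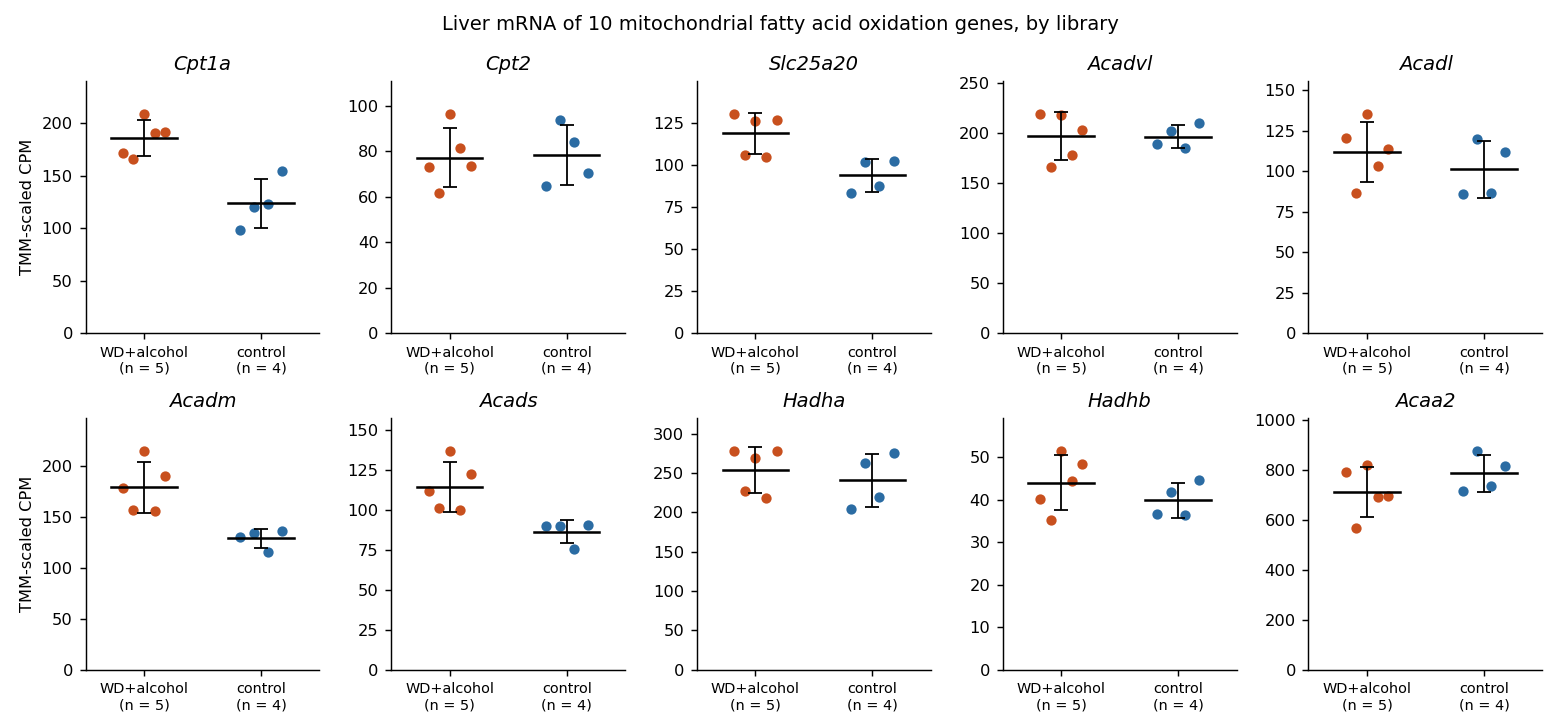
TMM-scaled CPM of each gene in each library (points), with the mean (bar) and SD (whiskers) of the WD+alcohol livers (left, n = 5) and the control livers (right, n = 4), each panel from 0 with its own scale. Cpt1a, Slc25a20, Acadm and Acads have all WD+alcohol points above all control points, and the other 6 genes overlap.

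Among the acyl-CoA dehydrogenases the mRNA of the medium-chain enzyme rose and that of the short-chain enzyme came close to the threshold. The mRNAs of the enzymes for longer chains did not pass the test. Acadm stood at 178, 156, 215, 155 and 189.6 CPM in WD+alcohol livers and at 130.01, 134, 115 and 136 CPM in control livers. All WD+alcohol livers were above all controls, and the control values lay close together. The means were 179 ± 24.8 CPM in WD+alcohol livers (SD, n = 5) and 129 ± 9.49 CPM in control livers (SD, n = 4), a 1.38-fold difference with a 95% interval of 1.19 to 1.600 (adjusted p = 0.0252, limma-trend). The call of Acadm was lost without WD+alcohol 1, WD+alcohol 5, control 1 or control 3 (adjusted p 0.0634 to 0.0851).

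Acads, the short-chain acyl-CoA dehydrogenase, had 112, 101, 137, 99.7 and 123 CPM in WD+alcohol livers and 89.6, 89.7, 75.4 and 90.8 CPM in control livers. No WD+alcohol value fell within the control range, in which 3 livers were nearly equal and control 3 was lower. The log2 fold change was 0.40 ± 0.10 (SE) with an adjusted p of 0.0631 (limma-trend), so Acads was not called. It was called in 6 of 22 alternatives, among them DESeq2 on recovered reads (adjusted p = 0.0285), robust limma-trend (0.0428) and the limma-trend fit that left out WD+alcohol 4 (0.0427), while leaving out control 3 gave 0.171.

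Acadl, the long-chain acyl-CoA dehydrogenase, had 120.5, 86.5, 135, 103 and 114 CPM in WD+alcohol livers and 85.8, 119.8, 86.4 and 112 CPM in control livers. Both groups held low and high livers, and only 2 of 5 WD+alcohol values exceeded all controls. Its log2 fold change was 0.15 with a 95% interval of -0.14 to 0.43 (adjusted p = 0.747, limma-trend).

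Acadvl, the very-long-chain acyl-CoA dehydrogenase of the inner membrane, had 219, 166, 218, 178 and 203 CPM in WD+alcohol livers and 189, 202, 185 and 209.9 CPM in control livers. The control range lay wholly inside the wider WD+alcohol range. Acadvl averaged 197 ± 24.0 CPM in WD+alcohol livers (SD, n = 5) and 196 ± 11.6 CPM in control livers (SD, n = 4). Its log2 fold change of -0.004 had a 95% interval of -0.20 to 0.19, an upper bound below the estimate for Acadm, and its sign turned in 8 of 22 alternatives.

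The balance between the mRNAs of the longest-chain and shortest-chain dehydrogenase shifted. The log2 ratio of Acadvl to Acads averaged 0.78 ± 0.12 in WD+alcohol livers (SD, n = 5) and 1.178 ± 0.09 in control livers (SD, n = 4), a difference of -0.40 (two-sided exact permutation test, p = 0.0159, adjusted p = 0.0238 over the 3 ratios). As a linear ratio Acadvl stood at 1.59 to 1.96 times Acads in WD+alcohol livers and at 2.11 to 2.45 times Acads in control livers, without overlap.

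**Figure D3:**
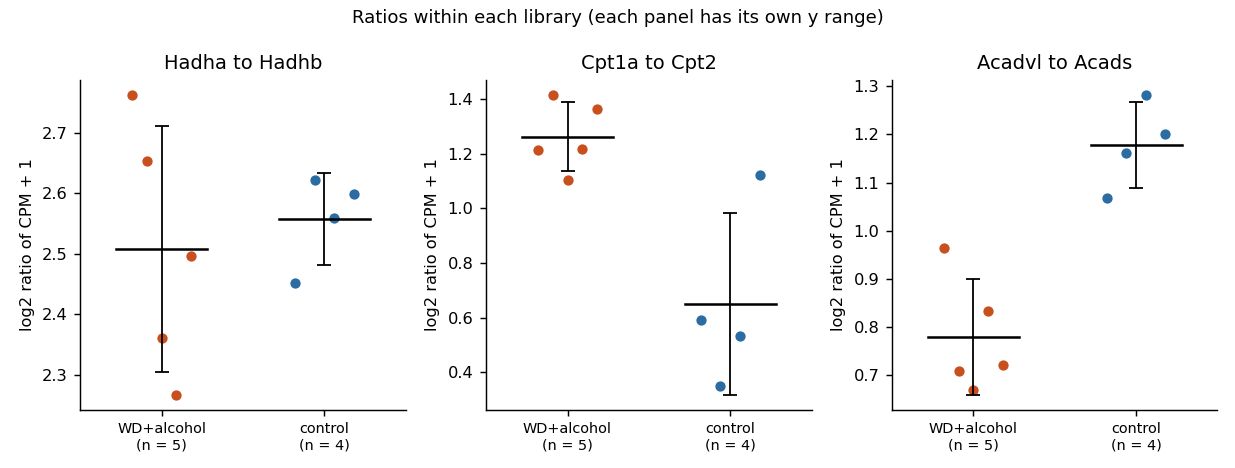
Log2 ratio of CPM + 1 between the genes of each pair in each library (points), with mean and SD, WD+alcohol (left, n = 5) and control (right, n = 4), each panel with its own y range. The ratio of Acadvl to Acads is lower in every WD+alcohol liver than in any control, that of Cpt1a to Cpt2 is higher except for control 4 at 1.12, and that of Hadha to Hadhb overlaps.

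The mRNAs of the later steps of the cycle did not pass the test. Hadha, the alpha subunit of the trifunctional protein with hydratase and hydroxyacyl-CoA dehydrogenase activity, had 278, 227, 269, 218 and 278 CPM in WD+alcohol livers and 204, 263, 220.02 and 276 CPM in control livers. Hadhb, the beta subunit with the thiolase, had 40.2, 35.3, 51.6, 44.5 and 48.4 CPM in WD+alcohol livers and 36.6, 41.8, 36.5 and 44.7 CPM in control livers. Each subunit's groups overlapped. On the log2 scale Hadha differed by 0.08 (95% interval -0.15 to 0.31) and Hadhb by 0.13 (-0.12 to 0.38).

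The read levels of Hadha and Hadhb, whose products form 1 complex, were far apart in every library. Hadha exceeded Hadhb by 4.90-fold to 6.93-fold in WD+alcohol livers and by 5.59-fold to 6.28-fold in control livers. The log2 ratio averaged 2.51 ± 0.20 in WD+alcohol livers (SD, n = 5) and 2.56 ± 0.08 in control livers (SD, n = 4), and the difference of -0.05 was within the spread (two-sided exact permutation test, p = 0.651, adjusted p = 0.651 over the 3 ratios). The ratio ranged most in WD+alcohol livers, with WD+alcohol 1 highest and WD+alcohol 4 lowest of all 9.

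Acaa2, the matrix thiolase of the last step, was the most abundant of the 10 genes, at 791, 567, 822, 691 and 697 CPM in WD+alcohol livers and 716, 878, 737 and 816 CPM in control livers. Its groups overlapped, with a log2 fold change of -0.15 (95% interval -0.38 to 0.09, adjusted p = 0.669, limma-trend). The sign was positive (0.09) with scaling on hepatocyte markers, which raised the log2 fold change of the median gene to 0.22, so that Acaa2 stood at -0.13 relative to it. As a share of all reads of the 10 genes, Acaa2 made up 33.9% to 37.4% in WD+alcohol livers and 40.6% to 43.0% in control livers. These shares did not overlap, and they were lower in all 5 WD+alcohol livers. Their denominator includes Cpt1a, Slc25a20, Acadm and Acads, so a lower share need not mean a lower level of Acaa2.

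The summed level of the 10 genes overlapped between the groups, at 1996 ± 233 CPM in WD+alcohol livers (SD, n = 5) and 1875 ± 178 CPM in control livers (SD, n = 4). Without Acaa2 the sums were 1282 ± 140.4 CPM in WD+alcohol livers and 1089 ± 108 CPM in control livers, and they still overlapped, with 1106 CPM in WD+alcohol 2 below 1196 CPM in control 4. By mean level in WD+alcohol livers the order was Acaa2, Hadha, Acadvl, Cpt1a, Acadm, Slc25a20, Acads, Acadl, Cpt2 and Hadhb. In control livers Acadm stood ahead of Cpt1a, and Acadl ahead of Slc25a20 and Acads. Acaa2 at the top and Hadhb at the bottom were apart from every other gene in all libraries of both groups. Among the other 8 genes neighbours overlapped within a group, except that Acadm lay above Slc25a20 in WD+alcohol livers and Acadvl above Acadm in control livers without overlap.

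The livers of a group also differed from each other in a way that several genes shared. WD+alcohol 3 was the highest of its group for 7 of the 10 genes and WD+alcohol 1 for the other 3, while WD+alcohol 2 was lowest for 6 and WD+alcohol 4 for 4. Control 4 was highest of its group for 7 genes and control 2 for 3, while control 1 was lowest for 6 and control 3 for 4. Over the 10 genes the median of log2(CPM + 1) minus the control mean was 0.40 in WD+alcohol 3 and -0.12 in WD+alcohol 2, and within controls it ran from -0.15 in control 1 to 0.11 in control 4. WD+alcohol 2 was thus below the control mean for 6 of the 10 genes, but above it for Cpt1a (0.44), Acadm (0.28), Acads (0.23) and Slc25a20 (0.18). The genes of 1 library share its RNA and its scaling factor, so their common movement is not independent.

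**Figure D4:**
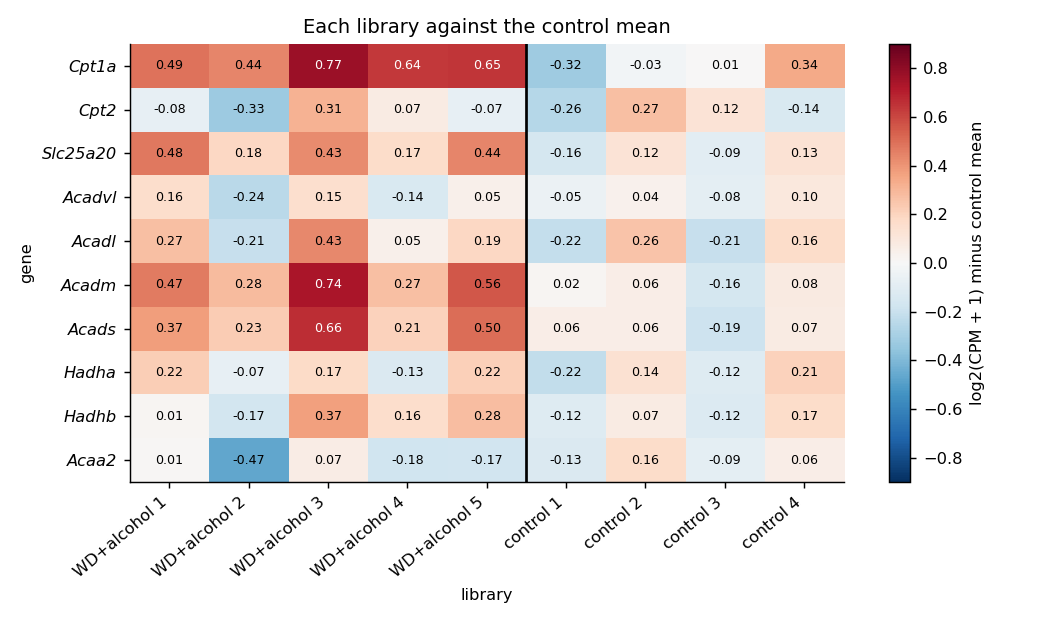
Log2(CPM + 1) of each gene (rows) in each library (columns, WD+alcohol left of the line, control right) minus the mean of the 4 controls. The rows of Cpt1a, Slc25a20, Acadm and Acads are positive in all 5 WD+alcohol livers, and the column of WD+alcohol 2 is negative for the other 6 genes.

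Of genes that are no members, 11020 with a mean of at least 5 CPM were ranked by the root mean square difference between their centred log2 profile over the 9 libraries and the median centred profile of the 10 genes. The nearest were Stard10, a lipid transfer protein (0.059), Ech1, a dienoyl-CoA isomerase (0.067), the unnamed transcript 0610012G03Rik (0.068), the kinase Mapk9 (0.069) and Cluh, an RNA-binding protein (0.070). The same measure was 0.077 for Acadl and 0.244 for Cpt1a, so the pattern held in common by the 10 genes was followed least closely by Cpt1a. The log2 fold changes of the nearest 5 ran from 0.10 for Cluh to 0.24 for Ech1, and 0 of them were called by limma-trend, Ech1 being at an unadjusted p of 0.0326.

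Genes that surround the pathway were counted from lists, and each count below stands beside those over all 14759 tested genes. Of all genes, 1798 were at an unadjusted p under 0.05 in either direction (limma-trend). After adjustment limma-trend called 238 higher and 100 lower, edgeR 222 higher and 93 lower, and DESeq2 370 higher and 175 lower. Among 16 other genes of matrix oxidation and electron transfer 2 rose and 1 fell by limma-trend, with a median log2 fold change of 0.35. At an unadjusted p under 0.05 (limma-trend) 9 were higher and 1 lower. The tool edgeR called 2 higher and 1 lower, and DESeq2 called 3 higher (Acad11 besides the 2) and 1 lower. Acot2, a matrix thioesterase that releases fatty acids from acyl-CoA, stood at 68.7, 47.8, 64.0, 31.1 and 86.7 CPM in WD+alcohol livers and at 20.6, 20.2, 16.0 and 21.6 CPM in control livers. Every WD+alcohol liver was above every control, and its log2 fold change of 1.49 ± 0.23 (SE) was called (adjusted p = 0.00285, limma-trend). Its estimate was larger than that of any of the 10 genes. Acad12, an acyl-CoA dehydrogenase family member, averaged 7.56 ± 2.10 CPM in WD+alcohol livers and 3.42 ± 0.43 CPM in control livers (adjusted p = 0.0228, limma-trend). The call of Acad12 was lost when WD+alcohol 2, WD+alcohol 5, control 1, control 2 or control 3 was left out (adjusted p 0.0550 to 0.0635), and with no filter on low values (0.0684). Acadsb, the dehydrogenase of short branched chains in isoleucine breakdown, averaged 60.6 ± 8.55 CPM in WD+alcohol livers and 85.1 ± 10.9 CPM in control livers and fell (adjusted p = 0.0416, limma-trend). The call of Acadsb was lost when WD+alcohol 1, WD+alcohol 2, WD+alcohol 5, control 1, control 2 or control 4 was left out (adjusted p 0.0786 to 0.131), with no filter on low values (0.0664) and with hepatocyte scaling (0.412).

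Of 14 measured peroxisomal oxidation genes 4 rose and 0 fell by limma-trend, edgeR and DESeq2 alike, with a median of 0.34. At an unadjusted p under 0.05 (limma-trend) 9 were higher and 0 lower. Acaa1b, a peroxisomal thiolase, differed by 1.31 ± 0.16 (log2 fold change, SE), and Ehhadh, a bifunctional enzyme, by 1.61 ± 0.24. Pex11a, a peroxisome division factor, differed by 0.97 ± 0.16. Acot2 and Acaa1b have near-identical paralogs (Acot1 and Acaa1a), between which the counting could split reads, so their values are uncertain. Of 15 other PPAR-alpha target genes 7 were higher and 0 lower at an unadjusted p under 0.05 (limma-trend), with a median of 0.70. After adjustment 3 rose and 0 fell, also by edgeR and DESeq2. They were Vnn1, a pantetheinase, Aldh3a2, a fatty aldehyde dehydrogenase, and Mgll, the monoglyceride lipase, with values of 1.72, 1.41 and 0.87. These 6 named genes had larger fold changes than Cpt1a, the largest estimate of the 10 genes, and whether the gap to Cpt1a exceeds its error was not tested.

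Of the 14 listed regulators, which include Ppara and its coactivators, 0 were called by limma-trend, edgeR or DESeq2, 1 was higher and 1 lower at an unadjusted p under 0.05, and the median was -0.12. Ppara, the receptor itself, stood at 27.0, 33.9, 35.3, 32.3 and 25.6 CPM in WD+alcohol livers and at 27.0, 32.8, 17.0 and 19.9 CPM in control livers, which overlapped (log2 fold change 0.37, 95% interval 0.004 to 0.73, adjusted p = 0.402, limma-trend). Lpin1, a coactivator and phosphatidate phosphatase, had the highest mean over the 9 libraries in that list, which rests on controls 3 and 4, and ran from 60.2 to 252 CPM in WD+alcohol livers, against 77.4, 121, 699 and 828 CPM in control livers (log2 fold change -1.16, adjusted p = 0.489, limma-trend). In WD+alcohol livers Lpin1 averaged 134.9 CPM, below the corepressor Ncor1 at 239 CPM. Of 7 malonyl-CoA control genes 0 were called by any of the 3 tools, with 1 lower at an unadjusted p under 0.05, and Mlycd, the decarboxylase that removes malonyl-CoA, had a log2 fold change of 0.14 (95% interval -0.21 to 0.49). Of 12 acyl-CoA supply and carnitine genes 0 were called by limma-trend or edgeR and 1 by DESeq2 (Acsl5, an acyl-CoA synthetase, lower), 2 were higher and 2 lower at an unadjusted p under 0.05, with Fabp1, the liver fatty acid-binding protein, at -0.17 (-0.48 to 0.13). Of 5 ketogenesis genes 0 were called by limma-trend or edgeR and 2 by DESeq2, both higher, and 3 were higher at an unadjusted p under 0.05.

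As a yardstick for mitochondria, 22 genes of the citric acid cycle, respiratory chain and import were measured, of which 0 were called by limma-trend, edgeR or DESeq2, 2 were higher at an unadjusted p under 0.05 and 10 had a positive log2 fold change. Their median was -0.008, against 0.14 for the 10 oxidation genes, and no test of this difference was made. Cox4i1, a subunit of cytochrome c oxidase with the highest mean over the 9 libraries among these genes, averaged 597 ± 65.0 CPM in WD+alcohol livers and 603 ± 106 CPM in control livers, close to Atp5a1 of the ATP synthase at 603 CPM in WD+alcohol livers and 590.5 CPM in control livers. The plot of gene lists shows the yardstick genes within -0.24 to 0.25.

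**Figure D5:**
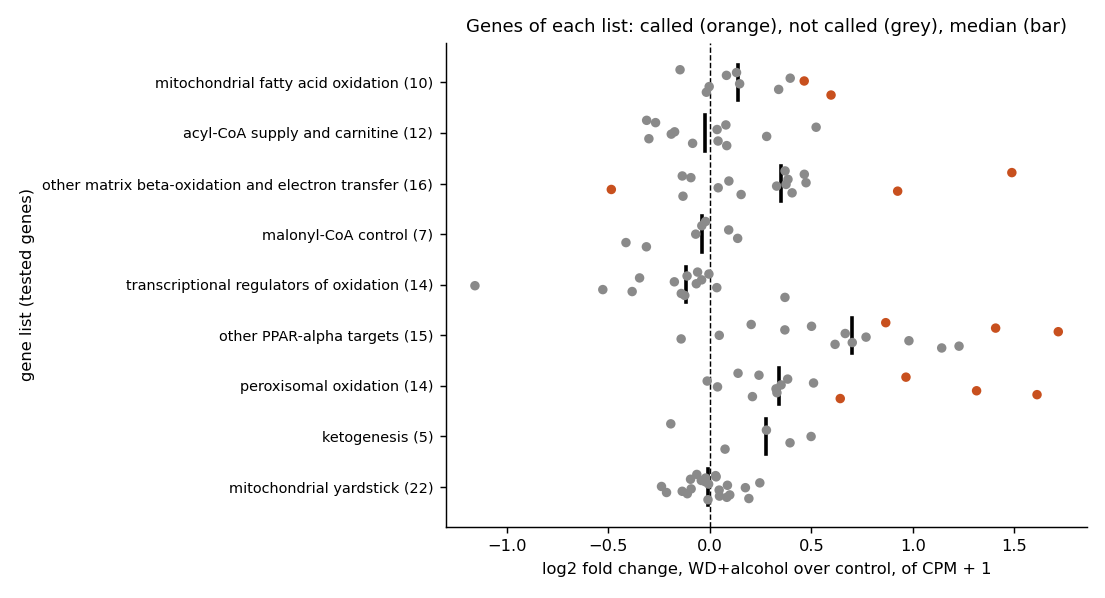
Log2 fold change, WD+alcohol over control, of each tested gene (points, orange where called at an adjusted p under 0.05) by list, with the list's median (bar) and the number of tested genes in brackets. The 10 oxidation genes have a median of 0.14, between the yardstick (-0.008) and the other PPAR-alpha targets (0.70).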

How the data were processed

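Liver RNA of 9 mice was made into Collibri 3′ mRNA libraries, per the labels' protocols. The submitters' processing notes name Trim Galore 0.6.0, cutadapt 1.18, STAR, HTSeq 0.11.0, edgeR 3.28.1, R 3.6.3 and the build GRCm39, with no further settings. The sources used here do not give the handling of strand or of multimapping reads, so reads of overlapping genes could be shared. The deposited values are a signal per gene, CPM adjusted by TMM by the authors. All positive values (100%, relative tolerance 1e-06) were whole multiples of the column's smallest, which gave reads for the depths and for edgeR and DESeq2. A read was worth 0.152 to 0.270 CPM, and 0 reads allow up to 3 reads. Fewest reads were in WD+alcohol 1. No library was a copy of another (lowest pairwise chi-square over its degrees of freedom 5.82). Each library was taken as 1 mouse, from the design's group sizes.

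Tests across genes used limma-trend from limma 3.58.1 in R 4.3.3 on log2(CPM + 1). They covered the 14759 genes whose mean reached 1 CPM and were two-sided, with Benjamini-Hochberg adjustment at 0.05. All 10 genes passed this filter. Ratios were tested by exact permutation over libraries. The members, lists and tests were chosen with earlier results of these data known, so agreement among them is no independent support. Named from each list were at most 4 called genes with the smallest p, or else the one with the highest mean over all libraries, besides the 10 genes, Ppara and the 5 nearest profiles, of which a few are not reported here. Simulated counts were used to test the fits. Alternatives were pseudocounts of 0.25 and 5, other filters and scalings, robust limma-trend, array weights, the replicate block, edgeR 4.0.16, DESeq2 1.42.0 and leaving out each library. Promoter windows come from RefSeq (GRCm38.p6), a build other than that of the reads, and were used for sequence only. Figures were drawn with matplotlib 3.10.9.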

Additional observations from a re-analysis of the deposited data

Results flagged for a closer look

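Acads in control 3, at 75.4 CPM, lay below the other 3 control livers, which were within 89.6 to 90.8 CPM. The gap to its nearest neighbour was 0.927 of the group's range, above Dixon's critical value of 0.829 for 4 samples. This was 1 of 28 groups of values examined, and chance flags about 1 in 20. Without control 3 the log2 fold change of Acads was 0.33, against 0.40 with all libraries.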

How the results depend on the processing

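Cpt1a had a positive log2 fold change in all 22 alternatives (0.49 to 0.84) and was called in 21, and Acadm was positive in all 22 (0.40 to 0.70) and called in 17. The number of the 10 genes called was 4 after rescaling to one total, 4 after scaling on hepatocyte markers, and 1 to 3 when a library was left out. The number of all genes called (338) was 735 with scaling on hepatocyte markers (650 higher, 85 lower, with the median gene at 0.22) and 545 with DESeq2, and ran from 195 to 386 when a library was left out (195 without WD+alcohol 1, 203 without WD+alcohol 5). The number of genes called in the surrounding lists (10) was 17 with one total, 31 with hepatocyte scaling and 8 to 13 when a library was left out. Relative to the median gene, hepatocyte scaling gave 0.62 for Cpt1a, 0.48 for Acadm, 0.41 for Acads and 0.36 for Slc25a20.

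No pairing by replicate number was seen: deviations of same-numbered libraries from their group means correlated at -0.31 to -0.008. The best matching WD+alcohol library was 3, 3, 2 and 2 for controls 1, 2, 3 and 4. With so few libraries this check can miss a pairing. With the replicate block, in which WD+alcohol 5 had no partner and added nothing to the estimates, 112 genes were called, 0 of the 10 (adjusted p = 0.0730 for Cpt1a, 0.3005 for Acadm; limma-trend) and 5 in the surrounding lists. The block lost the calls of Acad12, Acadsb, Mgll and Pex11a among the named genes. In the ratio tests the block (exact sign flips over 4 pairs, smallest p 0.125) gave differences of 0.59 for Cpt1a to Cpt2 and -0.38 for Acadvl to Acads, each with a permutation p of 0.125. The ratio of Cpt1a to Cpt2 ran from 0.51 to 0.77 when a library was left out, and that of Hadha to Hadhb from -0.11 to 0.0108 (above 0 without WD+alcohol 4).

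Signs turned for genes near 0. After rescaling to one total the log2 fold changes were 0.037 for Cpt2, 0.0513 for Acadvl and 0.0487 for Cox4i1. With array weights they were 0.0536 for Cpt2, 0.00837 for Acadvl and 0.0294 for Cox4i1. Hepatocyte scaling gave 0.22 for Cpt2, 0.24 for Acadvl, 0.0943 for Acaa2, 0.0677 for Fabp1 and 0.23 for Cox4i1, and quantile normalization 0.0332 for Acadvl and 0.017 for Cox4i1. Leaving out a library gave -0.10 to 0.0734 for Cpt2, -0.0442 to 0.0558 for Acadvl, -0.0824 to 0.0919 for Cox4i1 and -0.0034 to 0.32 for Mlycd. The causes were not tested. With 5 and 4 mice, standard errors of the 10 genes were 0.09 to 0.13 on the log2 scale, which limits what could be called.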
